A study of Oryctolagus cuniculus with 54 samples.

Results

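The comparison of T42 with T37 covers the last interval of the rabbit lung development series, in which pups born at term were 6 days (T37) and 11 days (T42) old. Its members were chosen by time point alone and were the 4 T37 and the 3 T42 libraries, 1 per animal and all of sequencing run 3, out of 54 libraries from 45 animals in the whole series. All 7 animals were New Zealand White rabbits that had been delivered spontaneously and stayed with their mothers in room air, without any further treatment, and by the study's methods the pups of a time point came from different dams. RNA came from homogenised right lung and therefore from every cell type of the organ, so that fewer cells of a type and less RNA per cell cannot be told apart. The labels used here give neither sex nor litter.

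Alveolarization is the stage of lung development in which secondary septa grow into the saccules and divide them into alveoli, which enlarges the surface for gas exchange. It depends on myofibroblasts that lay down elastin at the septal tips, on growth of the capillary bed, and on epithelial cells of which type II cells make surfactant and type I cells form the thin gas exchange surface. In rabbits the process begins around term and continues after birth, and the late alveolar lung also takes up resident immune cells.

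The libraries were made with a kit that reads messenger RNA near its 3′ end, and the values are whole-number counts per Ensembl gene, given here as CPM, the counts of a gene scaled to the total of its library. Total counts were between 6943764 and 7313919 in T37 and between 6523223 and 7825102 in T42, so that 1 count was worth 0.128 to 0.153 CPM. Between 15633 and 15935 genes had at least 1 count, and 0 pairs of libraries were identical. The mean correlation of a library with the other 6 was lowest for T37 animal 27, at 0.974, and between 0.978 and 0.980 for the rest. Counts have no molecular identifiers, so counting intervals cover counting error only, and p-values measure the spread between these 7 animals. The deposited identifiers were not matched to gene symbols here, so the lung markers behind the tissue label were not checked and the functions of the genes are not given. Counts of overlapping genes or near-identical copies are also uncertain, and such genes were not searched for.

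Few genes passed the thresholds between 6 and 11 days after birth with 4 and 3 animals, which does not mean that few differed. In edgeR's quasi-likelihood test 17 of 13175 genes (0.129%) passed a fold change above 2 and a Benjamini-Hochberg adjusted p of at most 0.05, and 14 of them (0.106%) were higher and 3 (0.0228%) were lower in T42. The groups did not overlap for any of the 17, which was also the case for 1644 (12.5%) of all tested genes, 893 with T42 above and 751 with T42 below T37. At an unadjusted p under 0.05 there were 1657 genes, 901 higher and 756 lower. With library sizes alone in place of TMM factors 10 genes were called, 7 higher and 3 lower.

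The count rested on single animals in both groups. It was 11 without T37 animal 12, 8 without T37 animal 46, 6 without T37 animal 47, 6 without T42 animal 14, 5 without T42 animal 33 and 11 without T42 animal 50. Leaving out T37 animal 27, the library with the lowest mean correlation, raised it to 48, with 29 higher and 19 lower. DESeq2 called 77 genes, among them all 17.

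For most genes a change beyond 2-fold lay outside the 95% interval of the estimate. The interval stayed within -1 to 1 on the log2 scale for 8413 genes (63.9%), and for 6939 (91.7%) of the 7564 genes with a mean of at least 10 CPM. The median absolute log2 fold change over all tested genes was 0.20. The plot of fold change against abundance shows how the spread narrowed with abundance.

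**Figure D1:**
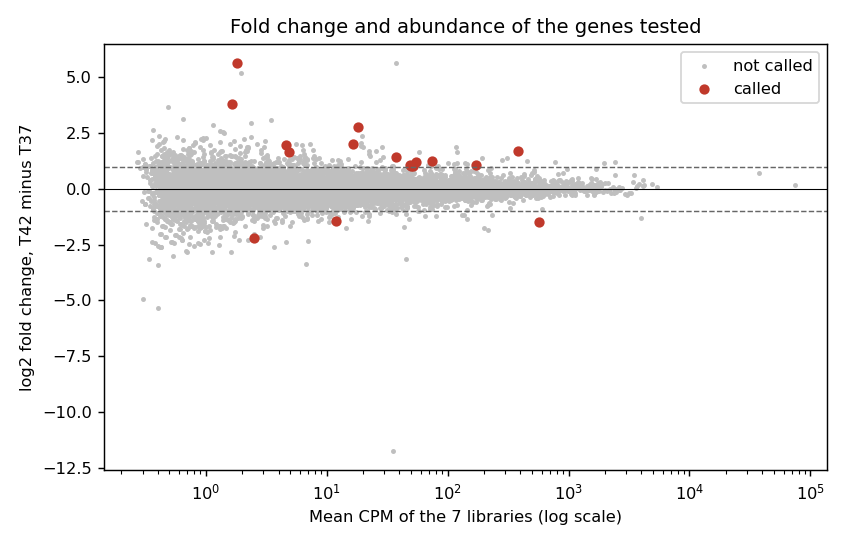
Log2 fold change (T42 minus T37) against mean CPM on a log scale for 13175 genes, with a point per gene, the 17 called genes in red and dashed lines at -1 and 1. None of the called genes is among the 100 most abundant, where 0.129% of all tested genes were called. Several genes with larger fitted differences were not called.

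None of the 100 most abundant genes was called, which is near the share of 0.129% over all tested genes. The 100 most abundant genes held 27.5% to 33.8% of the counts of a library, and their log2 fold changes ran from -1.31 to 1.19. Of these genes 3 exceeded an absolute log2 fold change of 1, 13 had an unadjusted p under 0.05, and the groups did not overlap for 13. The shares over all tested genes were alike, with 1657 of 13175 at an unadjusted p under 0.05 and 12.5% without overlap. The lowest adjusted p among the 100 genes was 0.108 in edgeR's test.

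Profiles of animals of the same age were slightly closer to each other than to those of the other age, by a margin that did not pass the test. The mean distance between profiles was 0.683 within T37, 0.658 within T42 and 0.712 between the groups, on log2 CPM with a prior count of 2. The difference of 0.0367 gave p = 0.114 in a one-sided exact permutation test over all 35 divisions of the 7 animals, of which the smallest possible p is 0.0286.

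The 17 called genes are numbered here within each direction, from the largest fold change. Their levels ran from 0 to 821 CPM in single animals, with a median of 37.2 CPM against 15.2 CPM for all tested genes.

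**Figure D2:**
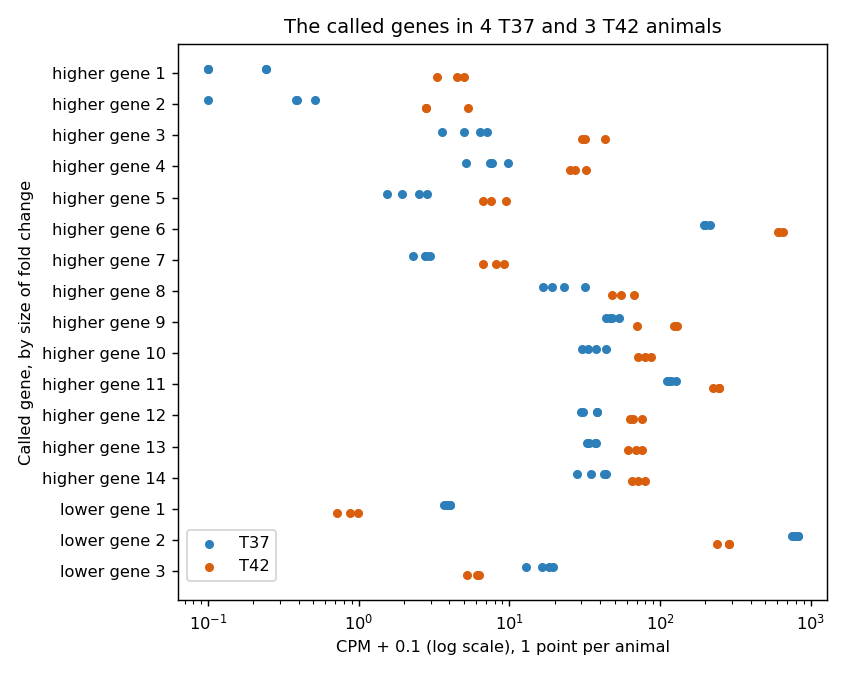
CPM plus 0.1 on a log scale for each of the 17 called genes, with a point for each of the 4 T37 and 3 T42 animals. The groups do not overlap for any called gene, and the 3 lower genes stand at the bottom.

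Higher gene 1 (ENSOCUG00000024589) had the largest difference. Its counts in T37 were 0, 0, 1 and 1, and in T42 they were 25, 32 and 34, or 3.19, 4.91 and 4.39 CPM. It was close to absent in all T37 libraries and low but present in all T42 libraries. The pooled ratio was 58.4 with a counting interval of 15.7 to 489.7, and edgeR gave a log2 fold change of 5.63 ± 0.59 (SE) with an adjusted p of 0.0104. Higher genes 1 and 2, 2 of the 17, passed the filter of 0.5 CPM in 3 libraries only through T42, so that a difference was built into their being tested.

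Higher gene 2 (ENSOCUG00000025374), a sparse gene too, had counts of 3, 0, 2 and 2 in T37 and of 21, 34 and 21 in T42. The T42 values of 2.68, 5.21 and 2.71 CPM were all above the T37 maximum of 0.410 CPM. Its pooled ratio was 13.9 with a counting interval of 6.45 to 35.8, and its log2 fold change was 3.80 ± 0.58 (SE, adjusted p = 0.0456). It was called in 6 of 18 alternative analyses and was not tested in 4 of the others, in which too few libraries passed the filter.

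Higher gene 3 was the most stable call, in 18 of 18 alternatives. It was singled out after its values were seen. Its values in T37 were 4.92, 6.33, 3.46 and 7.00 CPM, and in T42 they were 43.1, 31.7 and 30.1 CPM. The lowest T42 animal was thus far above the highest T37 animal, and the log2 fold change was 2.76 ± 0.25 (SE, adjusted p = 0.00332).

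Higher gene 4 had 9.71, 7.60, 5.04 and 7.29 CPM in T37 and 32.2, 27.3 and 25.3 CPM in T42. Its log2 fold change was 2.00 ± 0.22 (SE, adjusted p = 0.0125), and it was called in 14 of 18 alternatives. Higher gene 5 had at most 2.73 CPM in T37 and at least 6.59 CPM in T42.

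Higher gene 6 had the lowest adjusted p of all genes, 5.03e-05 in edgeR's test, with a log2 fold change of 1.71 ± 0.083 (SE). The T37 animals stood at 213, 199, 197 and 198 CPM and the T42 animals at 615, 656 and 610 CPM. Both groups were tight, with a wide empty interval between them.

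Higher genes 7 to 14 had log2 fold changes between 1.03 and 1.66. Higher gene 7 stood at 2.19 to 2.88 CPM in T37 and at 6.59 to 9.04 CPM in T42, and higher gene 8 at 16.7 to 31.7 CPM and 47.8 to 67.5 CPM. Higher genes 10, 12, 13 and 14 resembled each other in level, with 28.0 to 43.9 CPM over the T37 animals and 60.8 to 86.3 CPM over the T42 animals. At a higher level, higher gene 11 rose from 117, 128, 111 and 118 CPM in T37 to 225, 247 and 247 CPM in T42, with a log2 fold change of 1.09 ± 0.095 (SE, adjusted p = 0.00332). Unevenness within T42 was seen in higher gene 9, where animal 14 stood at 70.3 CPM and the other animals at 124 CPM or more, against 43.7 to 53.6 CPM in T37.

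Of the lower genes, lower gene 1 (ENSOCUG00000022518) had counts of 29, 28, 26 and 25 in T37 and of 7, 4 and 6 in T42. This fall from 3.57 to 3.97 CPM to 0.613 to 0.895 CPM corresponded to a log2 fold change of -2.21 ± 0.33 (SE, adjusted p = 0.0415). It was called in 7 of 18 alternatives.

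Lower gene 2 (ENSOCUG00000022961) was among the more abundant called genes. It had 783, 821, 817 and 752 CPM in T37 and 285, 286 and 238 CPM in T42, a log2 fold change of -1.49 ± 0.098 (SE, adjusted p = 0.000412). Lower gene 3 fell from 12.9, 16.5, 19.3 and 18.3 CPM to 5.11, 5.98 and 6.20 CPM, with a log2 fold change of -1.46 ± 0.19 (SE, adjusted p = 0.0230).

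The same genes were read in the other 47 libraries of the series, which the test did not use, to see where the levels of T37 and T42 stand among all ages. F marks fetal and T term animals, followed by the day counted from the start of gestation. P marks pups delivered preterm, followed by the days after delivery. By the study's methods, lungs were taken whole at F20 and F23. Fetal and preterm pups were delivered by C-section, and preterm pups were fed milk formula, unlike the term pups. In 21 of the 13175 tested genes (0.159%) the T42 animals were above all other 51 libraries, and in 17 (0.129%) they were below all of them. These included 2 of the 14 called higher genes and 0 of the 3 called lower genes.

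Both of these stayed below the T42 levels in every other library. Higher gene 3 reached at most 15.1 CPM outside T42, in an F28 animal, and had 2.72 to 13.7 CPM in T31 and 1.87 to 2.69 CPM in T35 in run 3. Higher gene 2 reached at most 1.60 CPM outside T42, in T35, and was at 0 in all 4 F23 animals. Against the 21 other libraries of run 3 alone, T42 was above for 77 tested genes (0.584%) and below for 57 (0.433%). These included higher genes 4, 8 and 14 beside higher genes 2 and 3, and lower gene 1.

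**Figure D3:**
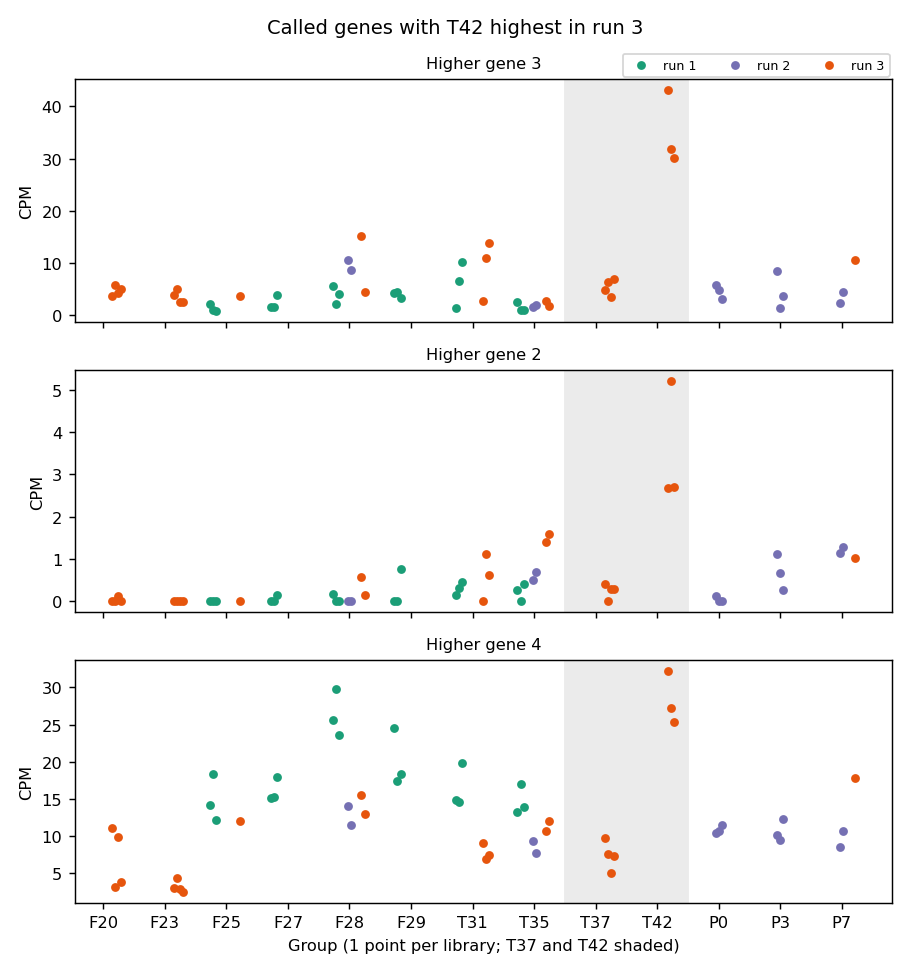
CPM of higher genes 3, 2 and 4 in all 54 libraries by time point, with a point per library, colours for the 3 sequencing runs and T37 and T42 shaded. For higher genes 3 and 2 the T42 animals lie above every other library, and for higher gene 4 above every other library of run 3 but not of run 1, where values reached 29.9 CPM.

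Other called genes had levels like those of T37 and of T42 at other ages. Higher gene 13 stood at 67.0 and 69.8 CPM in the run 3 libraries of T35, within the T42 range of 60.8 to 76.2 CPM, while T31 in run 3 had 28.0 to 47.7 CPM, a range that held the T37 values of 32.5 to 37.3 CPM. Lower gene 3 varied with the run. In T35 it had 9.21 and 9.59 CPM in run 3 but 13.5 to 20.0 CPM in run 1, and in F28 it had 5.80 and 5.85 CPM in run 3 but 10.4 to 14.2 CPM in run 1, beside 12.9 to 19.3 CPM in T37. The 3 T31 animals of run 3 ranged from 6.07 to 21.0 CPM, which covers all T37 values.

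Higher gene 6, the call with the lowest adjusted p, took recurring levels at many ages. No library of the series lay between 309 and 610 CPM: 27 libraries were below this interval and 27 above it. All 4 T37 animals were below and all 3 T42 animals above, whereas T31 had 2 animals below and 4 above, T35 1 below and 2 above, F20 1 and 3, and F23 3 and 1. Of the preterm pups, 1 at P0, 2 at P3 and 2 at P7 were below and the other 4 above. The only other ages with all animals on 1 side were F27, with 3 above, and F28, with 3 below. In all, 21 of the 45 animals were below the interval and 24 above.

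Animals that were read more than once stayed on the same side of the interval in every library. F25 animal 13 had 1037 and 955 CPM in runs 1 and 3. T35 animal 11 had 705, 868 and 823 CPM in runs 1, 2 and 3, and T35 animal 6 had 165, 180.5 and 210.4 CPM in the same runs. These 2 animals of the same age kept apart in every run, and 0 animals had libraries on both sides of the interval.

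Higher gene 1 split the libraries in the same way. Its 27 libraries at 1.61 CPM or more were the 27 libraries with higher gene 6 above the interval, and the other 27 had at most 0.310 CPM. The largest call by fold change and the strongest call by p therefore separated the same animals at all ages.

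Lower genes 1 and 2 were nearly absent in the same 2 libraries, which were also the 2 with the most higher gene 6. In F25 animal 18 higher gene 6 had 1793 CPM, lower gene 2 had 2.70 CPM and lower gene 1 had 0 counts. In P3 animal 2 the values were 1261, 3.36 and 0.134 CPM. All other libraries had at least 173 CPM of lower gene 2 and at least 0.613 CPM of lower gene 1. In the 27 libraries with higher gene 6 below the interval, lower gene 2 had 453 to 1253 CPM and lower gene 1 had 1.84 to 12.3 CPM. In the 27 above it they had 2.70 to 656 CPM and 0 to 7.36 CPM. These ranges overlap, but the T42 levels of both genes lie only within those of the libraries above the interval. What sets these levels was not tested, and as all T37 animals were on 1 side and all T42 animals on the other, age and animal cannot be told apart for these genes within the comparison.

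**Figure D4:**
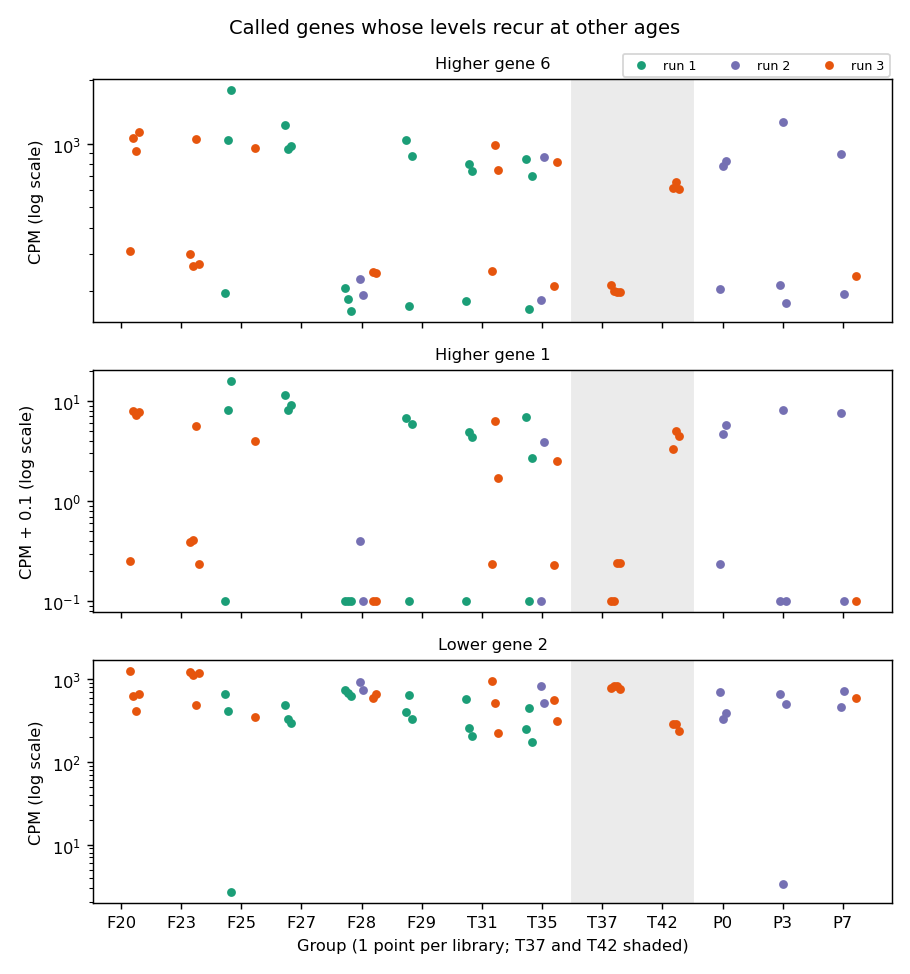
CPM of higher gene 6, higher gene 1 (plus 0.1) and lower gene 2 on log scales in all 54 libraries by time point, with a point per library, colours for runs and T37 and T42 shaded. Higher genes 6 and 1 take an upper or a lower level at nearly every age, and 2 libraries stand near 3 CPM for lower gene 2.

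Some called genes also differed between libraries of the same animal. F28 animal 2 and T35 animals 6 and 11 were read in runs 2 and 3. For 13 of the 17 called genes the run 3 value exceeded or fell below the run 2 value in all 3 animals in the direction of T42 minus T37, against 33.2% of all tested genes. For 5 of the 17 the 3 animals shared this direction and their mean reached at least 50% of the size of T42 minus T37 on log2(CPM + 2). This held for 30.0% of all tested genes, but the 2 shares cannot be compared. The bar scales with the T42 minus T37 difference of each gene, which is small for most genes. The median absolute run 3 minus run 2 difference over tested genes was 0.179.

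Higher gene 11 was the clearest of these. Run 3 exceeded run 2 by 1.10 to 1.20 on the log2(CPM + 2) scale in these 3 animals, a mean of 1.15, while T42 exceeded T37 by 1.00. In CPM its values rose from 107 to 241 in F28 animal 2, from 91.2 to 197 in T35 animal 6 and from 86.4 to 201 in T35 animal 11. A difference as large as the one between T37 and T42 was thus seen between libraries of 1 animal from different runs. All T37 and T42 libraries were of run 3, and what sets the difference between runs was not tested. For higher gene 12 the mean was 0.86 against 0.97 for T42 minus T37, and for higher gene 8 it was 0.82 against 1.28. Against run 1 the direction was not the same. In the 5 animals read in runs 1 and 3, run 3 minus run 1 was opposite to T42 minus T37 in all 5 for 7 of the 17 called genes, with means of -1.19 for higher gene 12 and -2.24 for higher gene 8, and had the same direction in all 5 for 5 of the 17, among them higher gene 11 with a mean of 0.67.

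Within run 3 the level of higher gene 11 also differed between time points outside the comparison. It was 109 to 150.4 CPM in the 7 libraries of F23 and T31 and 197 to 241 CPM in the 6 libraries of F25, F28, T35 and P7, beside 111 to 128 CPM in T37 and 225 to 247 CPM in T42. The 4 F20 animals spread over both ranges and beyond, from 153 to 345 CPM. By the letters of their library codes F20, F23 and T31 come before T37, and F25, F28, T35 and P7 come after T42, and what the letters stand for is not given in the sources used here. Libraries coded after T42 were entirely above those of F23 and T31 for 5 of the 14 called higher genes (4, 5, 8, 11 and 14), against 149 (1.13%) of all tested genes. With F20 added to the earlier codes this held for 0 of the 14, against 120 (0.911%). The sets without F20 are those that part the values of higher gene 11, itself among the 5, so the 5 do not test the library code. Code and time point cannot be told apart here, and the part of the library code in the calls was not tested. Higher gene 3 had 2.48 to 13.7 CPM in F23 and T31 and 1.87 to 15.1 CPM in F25, F28, T35 and P7 of run 3, which overlap and lie below T42.

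**Figure D5:**
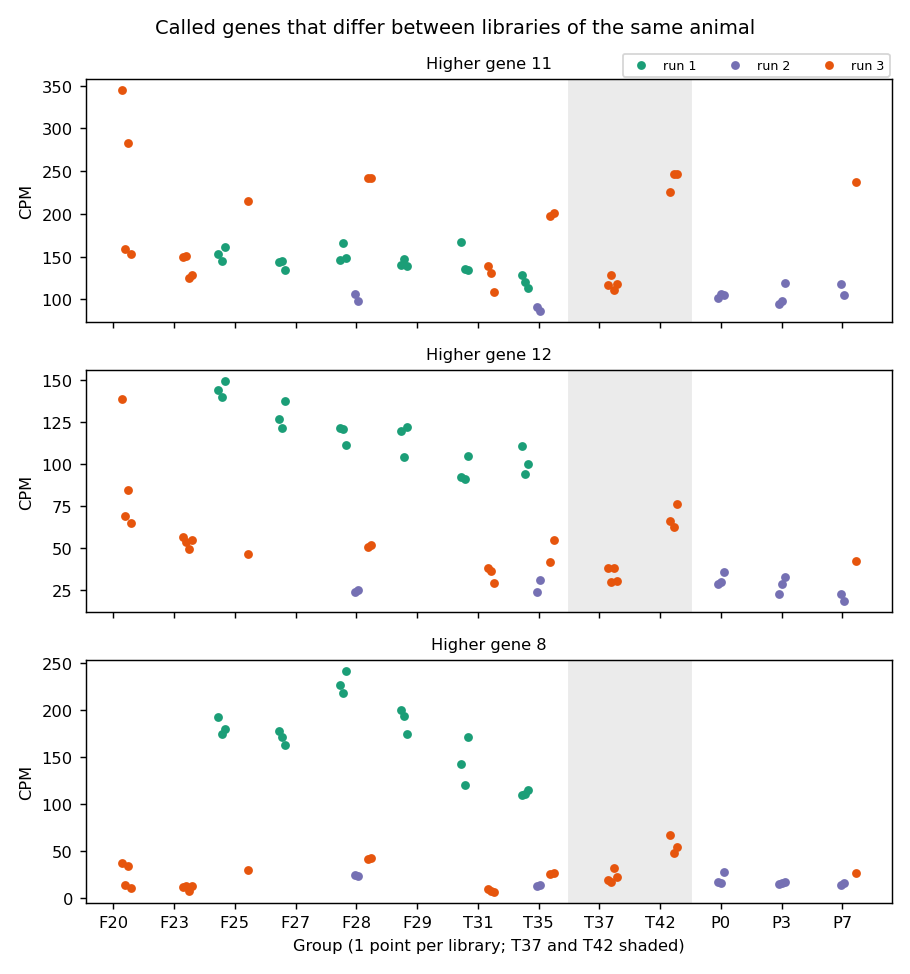
CPM of higher genes 11, 12 and 8 in all 54 libraries by time point, with a point per library, colours for runs and T37 and T42 shaded. At F28 and T35 the run 3 libraries lie above the run 2 libraries for all 3 genes, for higher gene 11 by as much as T42 lies above T37. All T37 and T42 libraries are of run 3.

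When the comparison was fitted within more animals, most calls were lost. Over all 24 libraries of run 3, 5 genes were called between T42 and T37, all higher, and over the 36 fetal and term animals 6 were called, also all higher. Of the 17 genes, higher genes 3, 4, 11 and 12 were called in both of these fits, and higher genes 1 and 6 and lower gene 2 in neither. Their log2 fold changes hardly moved, with 1.72 and 1.70 for higher gene 6, 5.65 and 5.64 for higher gene 1 and -1.47 and -1.49 for lower gene 2. With the 24 libraries edgeR called 0 lower genes, with 1326 genes in either direction at an unadjusted p under 0.05.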

How the data were processed

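RNA of right lungs, or of whole lungs at F20 and F23, was sequenced with the QuantSeq FWD kit. Per the study's methods the authors trimmed reads with BBduk, used STAR for alignment to OryCun2.0 and HTSeq-count with Ensembl rabbit genes for counting; versions are not given in the sources used here. The deposited table holds raw counts, 1 column per library, and 0 columns belonged to no sample. Samples were grouped by their labels. Genes that reached 0.5 CPM in 3 or more of these 7 libraries were tested with edgeR 4.0.16 in R 4.3.3 (TMM, quasi-likelihood F test, Benjamini-Hochberg, no covariate). Alternatives used limma 3.58.1, DESeq2 1.42.0 and other scalings, filters and samples. The procedure was tested on simulated data. Figures were drawn with matplotlib 3.10.9.

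The comparison, gene lists and naming rule were chosen with earlier results of these data known. Because 0 identifiers matched a symbol, 49 planned lists of pathway and cell type genes were not applied, and at most 2 identifiers per direction are printed, those with the largest fold change among called genes without overlap. The levels in other libraries and the run 2 and run 3 differences were chosen for description after seeing the data.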

Additional observations from a re-analysis of the deposited data

Results flagged for a closer look

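In T37, animal 12 had 212.7 CPM of higher gene 6, apart from the 197 to 199 CPM of the other 3 animals, by a test of the gap against the range (the gap was 0.863 of the range of the 4 values). It was 1 of 19 sets of 4 values looked at, of which chance alone marks about 1 in 20, and it is small beside the 610 to 656 CPM of T42.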

How the results depend on the processing

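The 17 calls (14 higher, 3 lower) became 77 (61 higher, 16 lower) with DESeq2, 40 (35 higher, 5 lower) without a filter on low counts, 10 (7 higher) with library sizes alone, 27 (24 higher) by the adjusted p alone and 4 (3 higher, 1 lower) with glmTreat at a fold change of 1.5. They became 5 (5 higher, 0 lower) over 24 run 3 libraries and 6 (6 higher, 0 lower) over 36 animals, with 1326 and 1297 genes at an unadjusted p under 0.05. The other counts stayed within 1.5 times, such as 14 with limma-voom. Leaving out 1 animal gave 5 to 48 calls, 4 to 29 higher and 1 to 19 lower, 48 without T37 animal 27 and 5 without T42 animal 33. The cause was not tested. Counting each named gene in each alternative fit that tested it gave 55 values. The sign was kept in all 55 and the call was lost in 20. The named genes had groups without overlap and the fits reused the same animals, so the sign could hardly change. The 55 values leave out the adjusted p alone and glmTreat. With glmTreat, ENSOCUG00000025374 and ENSOCUG00000022518 also lost the call (adjusted p = 0.220 and 0.244). Fold changes of genes with few counts are imprecise at this depth. No paired analysis was possible because the animal numbers of T37 and T42 share none.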

Other observations

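Several of the largest fitted differences among genes with a mean of at least 10 CPM were not called, and in these genes single animals stood apart within a group. One gene had 245 CPM in T37 animal 47, at most 0.864 CPM in the other T37 animals and 0 counts in all 3 T42 animals, and ranged from 0 to 305 CPM in the other 47 libraries, 13 of which were at 0. A further gene had 74.8 and 179 CPM in T42 animals 14 and 33 but 0.387 CPM in T42 animal 50, against 0.286 to 2.88 CPM in T37, with 0.646 to 215 CPM elsewhere in the series. Another stood at 268 CPM in T37 animal 27 and between 6.01 and 10.1 CPM in the other 6 animals, with 3.93 to 265 CPM elsewhere. Their adjusted p-values in edgeR's test were 0.364, 0.123 and 0.388. These genes were singled out after their values were seen.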
